A study of Mus musculus with 12 samples.

Results

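The renin-angiotensin and kallikrein-kinin genes considered here are Ren1, Agt, Ace, Agtr1a, Lnpep, Atp6ap2, Bdkrb2 and Klk1, and every array probe set annotated with 1 of these symbols was taken. Of the 8 genes, 6 had a probe set, with 13 probe sets among them, of 18193 genes named on the array. A probe set was tested if its signal lay above the median of its own array in at least 3 of the 12 arrays. Of the 13 probe sets 11 passed, and 5 of the genes (Agt, Ace, Agtr1a, Atp6ap2 and Klk1) entered the test among 12385 genes. Both probe sets of Bdkrb2 lay at or below the median in all arrays, and Ren1 and Lnpep were not analysed here.

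RNA came from renal cortex of ICGN mice, labelled as having nephrotic syndrome, and of ICR mice, labelled normal. The 4 groups were ICGN at 8 weeks, ICR at 8 weeks, ICGN at 4 weeks and ICR at 4 weeks, each with 3 Affymetrix Mouse Genome 430 2.0 arrays. No treatment is given in the labels for any group, and the sex of the mice is not given either. ICGN is a strain derived from ICR stock with a hereditary nephrotic syndrome and a mutation of Tns2, which encodes an adaptor protein of podocytes, so the strain comparison sets 1 diseased line against 1 related stock. Replicates are numbered in the labels, which do not say whether each is 1 mouse or a pool. The p-values therefore cover the spread between these samples alone, and the 3 arrays a group limit the precision.

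In the renin-angiotensin system, renin cuts angiotensinogen, made by liver and also by proximal tubule cells, to angiotensin I, and angiotensin-converting enzyme (ACE) turns this into angiotensin II, which acts on its type 1 receptor to constrict vessels and retain sodium. In the kallikrein-kinin system, tissue kallikrein of the connecting tubule frees kinins from kininogen, and these act on bradykinin receptors to widen vessels and promote sodium loss. The systems meet at ACE, which also breaks down bradykinin.

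Signals of single probe sets are given on a common scale with each array centred on its tested genes. Differences are log2 fold changes of (signal + 12.9) with the standard error of the limma fit, positive where ICGN was higher or, for age, where 8 weeks was higher. A gene was called at a Benjamini-Hochberg adjusted p of 0.05 or less over all 12385 genes. Deposited signals of the 2 ages had been scaled to different targets, and scaling each array to a common median removes a factor of that kind. The ages may also have been processed apart, which cannot be told apart from age in any age comparison. In bulk cortex, fewer cells of a type and less RNA per cell cannot be told apart either.

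The genes that hold the main strain differences are Agt, on the minus strand of chromosome 8 (GRCm38.p6, 124556587 to 124569706), and Ace, on the plus strand of chromosome 11 (105967948 to 105989964). The 250 bases before the start of each are shown because these genes moved in opposite directions at 8 weeks. They were taken from the RefSeq promoter table of build GRCm38.p6, at chr8:124569707-124569956 for Agt and chr11:105967698-105967947 for Ace, and are written 5′ to 3′ in the direction of transcription. RefSeq lists 2 starts for Ace, 7241 bases apart, and the upstream one is shown. The arrays do not say which start was used. Capitals mark matches to TATAAA, the core of a TATA box, or GGGCGG, a GC box, on either strand.
Agt: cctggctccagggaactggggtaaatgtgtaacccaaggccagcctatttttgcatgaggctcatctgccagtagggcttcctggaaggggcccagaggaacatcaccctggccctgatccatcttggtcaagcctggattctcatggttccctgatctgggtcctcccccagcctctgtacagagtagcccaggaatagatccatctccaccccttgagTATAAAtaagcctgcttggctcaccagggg
Ace: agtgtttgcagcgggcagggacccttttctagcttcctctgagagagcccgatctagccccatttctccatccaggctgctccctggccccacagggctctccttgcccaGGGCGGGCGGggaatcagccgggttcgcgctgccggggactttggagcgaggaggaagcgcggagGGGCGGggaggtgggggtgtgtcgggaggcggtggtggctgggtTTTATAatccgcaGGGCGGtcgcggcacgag

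In the Agt window TATAAA occurred 1 time, beginning at base 221 of the 250, and GGGCGG did not occur. The Ace window had TATAAA 1 time, on the opposite strand at base 220, and GGGCGG 4 times, at bases 111, 115, 176 and 233, the first 2 of these overlapping. TGTTCT, a steroid receptor half-site, was in neither window. TATAAA occurred on either strand in 12.4% of the 32851 windows of this length in the table, GGGCGG in 32.7% and TGTTCT in 16.1%. A match describes letters and not a used site.

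**Figure D1:**
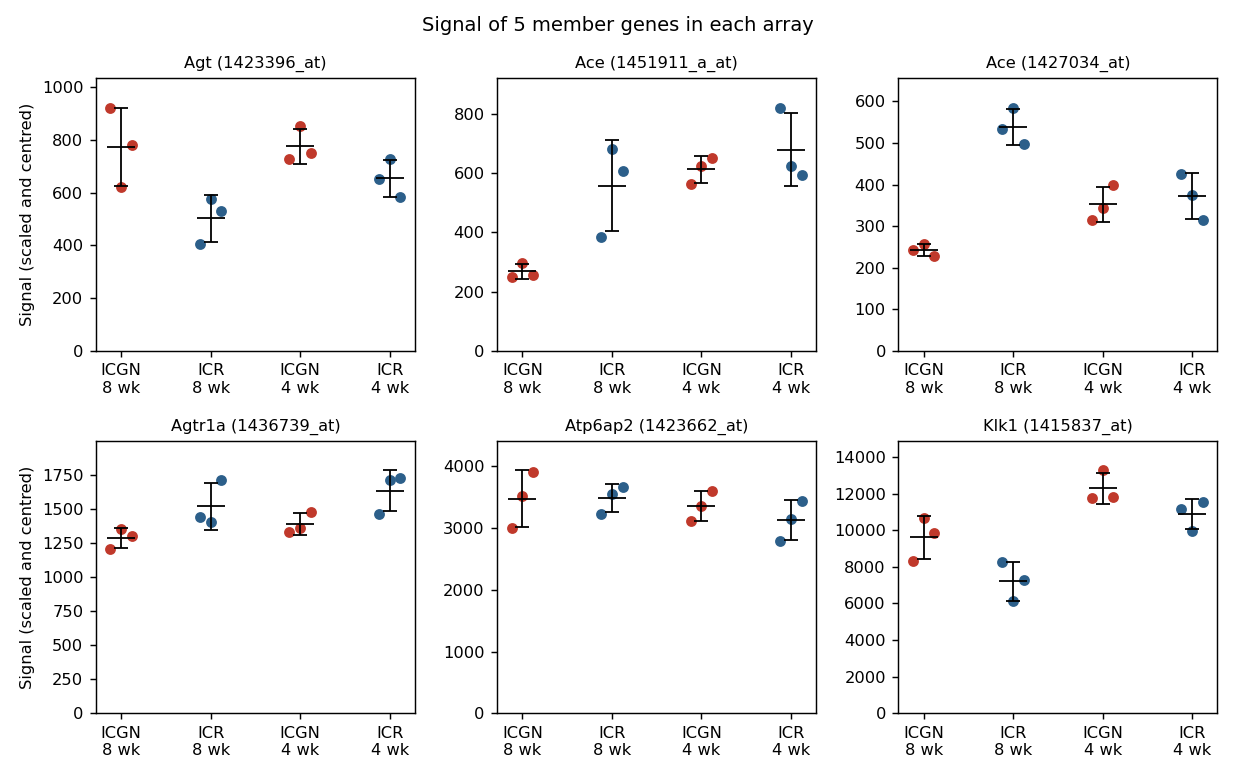
Signal per array (y axis, linear, scaled and centred) for 6 probe sets of the 5 tested genes in the 4 groups (x axis). Points are arrays, and bars are the mean with SD (n = 3). At 8 weeks all ICGN arrays lie above all ICR arrays for Agt and Klk1 and below them for both Ace probe sets and Agtr1a.

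The comparison at 8 weeks asks how expression in ICGN cortex differed from ICR cortex at the older age. Agt and Klk1 were higher in ICGN, and Ace was lower. Agtr1a and Atp6ap2 did not pass the test. Thus 2 of the 5 tested genes were called higher and 1 lower, where 12.8% and 19.6% of all tested genes were called in those directions. The members' median log2 fold change was -0.01, beside -0.06 over all genes. ICGN and ICR arrays did not overlap for 4 of the 5, against 44.6% of all tested genes.

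Agt encodes angiotensinogen, the only precursor of the angiotensins. Its signal at 8 weeks was 920.2, 621 and 779.9 in the ICGN arrays, against 404, 577 and 531 in the ICR arrays. All ICGN arrays lay above all ICR arrays, although the lowest ICGN array and the highest ICR array were close. The means were 774 ± 149.7 in ICGN and 504 ± 89.5 in ICR (SD, n = 3 each), a 1.52-fold difference (log2 0.60 ± 0.15, limma adjusted p = 0.00844). The 95% interval of the log2 difference ran from 0.28 to 0.93. The call held under all 17 alternative settings, at adjusted p between 0.00315 and 0.0448.

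Ace encodes the converting enzyme, a peptidase of the proximal tubule brush border and of endothelium. It was the member with the largest strain difference. The probe set standing for the gene, 1451911_a_at, read 249, 298 and 257 in ICGN arrays at 8 weeks, against 385, 681 and 607 in ICR arrays. Every ICGN array was below every ICR array, and the first ICR array was well below the other ICR arrays. Means were 268 ± 26.2 in ICGN and 558 ± 154 in ICR (SD, n = 3 each), a 1.98-fold lower level (log2 -0.99 ± 0.18, limma adjusted p = 0.00104, 95% interval from -1.37 to -0.60).

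A further Ace probe set, 1427034_at, gave 243, 256 and 228 in the ICGN arrays and 534, 585 and 497 in the ICR arrays at 8 weeks. The groups were again apart, with little spread in either. In a fit of each probe set as its own feature, added after seeing the data, this one differed by -1.13 ± 0.13 (adjusted p = 4.6e-05) and 1451911_a_at by -1.01 ± 0.18 (adjusted p = 0.00117). The lower Ace level in ICGN at 8 weeks was therefore seen with both probe sets, and the gene's call held under all 17 alternatives.

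Klk1 encodes tissue kallikrein, the kinin-forming protease (chromosome 7, 44225360 to 44229622). Its probe set 1415837_at had signals of 8336, 10644 and 9836 in ICGN arrays at 8 weeks, against 8262, 6132 and 7254 in ICR arrays. The groups did not overlap, but the lowest ICGN array stood only just above the highest ICR array. Means were 9605 ± 1171 in ICGN and 7216 ± 1066 in ICR (SD, n = 3 each), a 1.33-fold difference (log2 0.42 ± 0.12, limma adjusted p = 0.0163). This call was lost under 6 of 17 alternatives. The adjusted p was 0.0695 without ICGN 8-week replicate 2, 0.0553 without ICGN 8-week replicate 3 and 0.0741 without ICR 8-week replicate 2, and it was 0.147 with scaling to array medians alone, 0.130 with no filter and 0.278 with the mean of the gene's probe sets.

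The last of these settings averages probe sets that disagreed. Klk1 has 4 probe sets here, 3 of them with the suffix _x_at, which marks probes that can bind similar sequences. Klk1 belongs to a family of closely similar kallikrein genes, so its level is uncertain to that extent. Probe set 1448107_x_at read 8998, 11303 and 10658 in ICGN arrays at 8 weeks and 8541, 6997 and 7563 in ICR arrays, higher in ICGN (log2 0.40, adjusted p = 0.0157 in the probe set fit). Probe set 1455977_x_at went the opposite way, with 1705, 1441 and 1521 in ICGN arrays and 1878, 2609 and 1986 in ICR arrays (log2 -0.48 ± 0.13, adjusted p = 0.0169). All its ICGN arrays lay below all its ICR arrays. The dimmest, 1460050_x_at, averaged 165 in ICGN and 133 in ICR with overlapping groups (log2 0.28, adjusted p = 0.50). Over the 12 arrays, which fall into 4 groups, log2 values of 1455977_x_at correlated with those of 1415837_at at r = -0.89, while 1448107_x_at and 1415837_at correlated at r = 0.99. These correlations are descriptions.

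**Figure D2:**
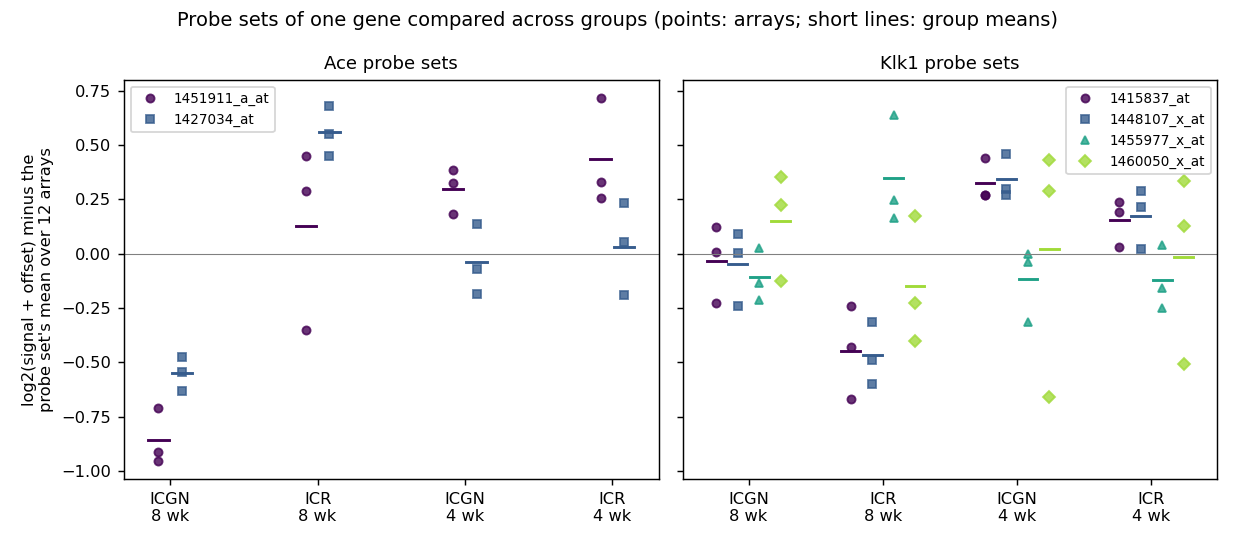
Values of each Ace and Klk1 probe set as log2(signal + offset) minus that probe set's mean over 12 arrays (y axis), by group (x axis). Points are arrays and short lines are group means (n = 3). Both Ace probe sets are lowest in ICGN at 8 weeks, while Klk1 probe set 1455977_x_at is highest in ICR at 8 weeks, where 1415837_at and 1448107_x_at are lowest.

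Agtr1a encodes the type 1 angiotensin II receptor, found on vessels, mesangial cells and tubules (chromosome 13, 30336356 to 30382867). At 8 weeks its signal was 1209, 1355 and 1302 in ICGN arrays, against 1439, 1402 and 1716 in ICR arrays. ICGN arrays were all below ICR arrays, yet the difference did not pass the test (log2 -0.23 ± 0.10, limma adjusted p = 0.0984). Its 95% interval, from -0.45 to -0.01, was not adjusted for the number of genes. Its size depended on the processing: it was -0.34 and called with no filter on low values (adjusted p = 0.0335), -0.35 with array medians alone (0.0560), -0.10 with trimmed mean scaling (0.435) and -0.05 with quantile normalization (0.714). Without ICR 8-week replicate 3 it was -0.14 (adjusted p = 0.345).

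Atp6ap2 encodes the (pro)renin receptor, which is also an accessory subunit of the vacuolar proton pump (chromosome X, 12587759 to 12617051). Probe set 1423662_at read 2995, 3520.3 and 3911 in ICGN arrays at 8 weeks, against 3226, 3555 and 3669 in ICR arrays. The groups overlapped and their means nearly coincided (log2 -0.01 ± 0.11, limma adjusted p = 0.959, 95% interval from -0.25 to 0.23). Quantile normalization gave 0.25 and a call in the opposite direction (adjusted p = 0.0496). Probe sets 1437688_x_at and 1439456_x_at also overlapped between the strains at both ages, and neither was called in either strain comparison.

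Bdkrb2 encodes the B2 bradykinin receptor (chromosome 12, 105563172 to 105595244). With signals at or below the array median throughout, it was not part of the test. Its probe set 1422263_at read 5.56, 6.58 and 19.2 in ICGN arrays at 8 weeks, against 24.0, 24.2 and 27.7 in ICR arrays. The other, 1442187_at, read 32.0, 19.4 and 3.31 in ICGN arrays and 12.4, 2.98 and 3.43 in ICR arrays. These probe sets leaned in opposite directions, and without the filter the log2 differences were -0.88 (adjusted p = 0.0246) and 0.49 (adjusted p = 0.342). No level of the receptor can be read from them.

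At 4 weeks none of the 5 tested genes was called by limma in the strain comparison, and 1, Agtr1a, had an unadjusted p under 0.05. Of all tested genes, 4.13% were called at that age, 2.05% higher and 2.08% lower. The members' median log2 fold change was 0.11, beside -0.02 over all genes. Arrays of the strains did not overlap for 2 of the 5, Agt and Klk1, where 24.8% of all genes showed no overlap.

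Agt at 4 weeks read 726.95, 852 and 752 in ICGN arrays, against 651, 726.58 and 585 in ICR arrays. The separation rested on less than 1 unit of signal, and the difference of 0.25 ± 0.15 did not pass the test (limma adjusted p = 0.436). Ace on 1451911_a_at read 563, 624 and 651 in ICGN and 822, 626 and 593 in ICR, and on 1427034_at it read 316, 343 and 398 in ICGN and 426, 375 and 314 in ICR. With either probe set the strains overlapped at this age (log2 -0.14 ± 0.18 for the gene, limma adjusted p = 0.757), and without ICR 4-week replicate 1 the small difference changed sign (0.0061).

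Klk1 on 1415837_at read 11767, 13266 and 11787 in ICGN at 4 weeks, against 11172, 9963 and 11536 in ICR (log2 0.17 ± 0.12, limma adjusted p = 0.488). ICGN arrays were all higher here too, by a margin smaller than their own spread. Agtr1a read 1329, 1358 and 1481 in ICGN arrays and 1461, 1713 and 1729 in ICR arrays (log2 -0.23 ± 0.10, limma adjusted p = 0.239), and 1 ICGN array reached into the ICR range. Atp6ap2 read 3109.8, 3364 and 3603 in ICGN arrays and 2791, 3149 and 3442 in ICR arrays, with overlap (log2 0.11 ± 0.11, limma adjusted p = 0.680).

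**Figure D3:**
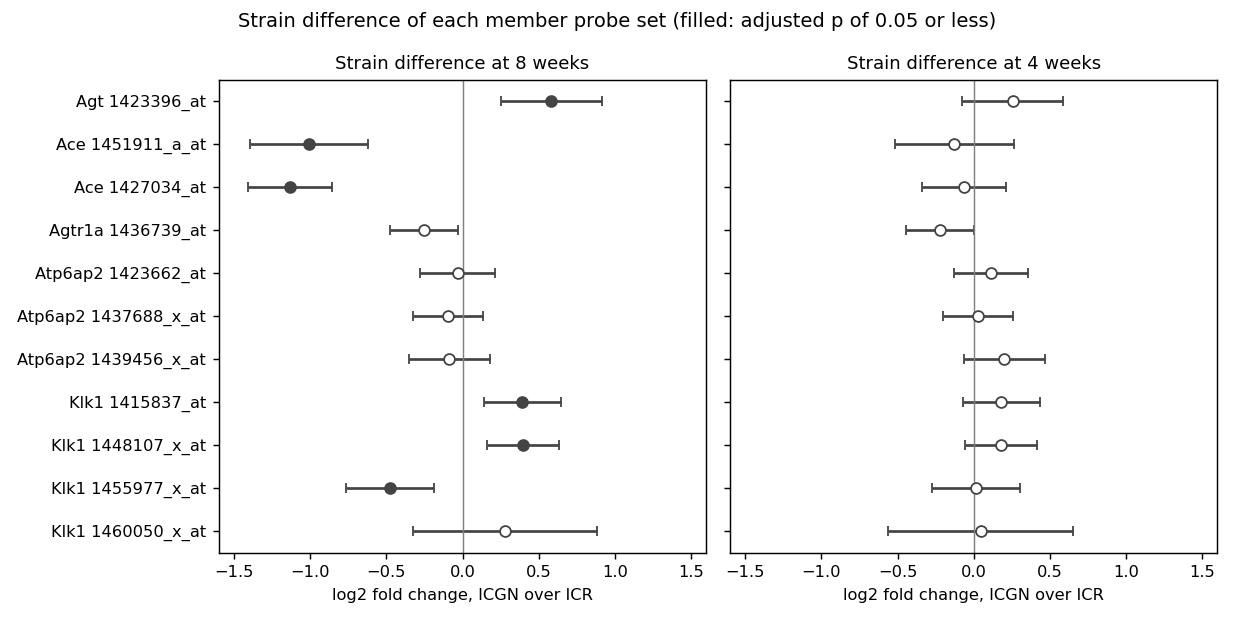
Log2 fold change of ICGN over ICR (x axis) for the 11 member probe sets that passed the filter (y axis), at 8 weeks (left) and 4 weeks (right). Points are estimates of the probe set fit with 95% intervals, filled where the adjusted p was 0.05 or less. At 8 weeks 6 probe sets are filled, and at 4 weeks none is.

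Whether the strain difference itself changed with age was tested as the interaction of strain and age. It was called for 0 of the 5 genes by limma, with 1 at an unadjusted p under 0.05, against 9.36% of all tested genes (4.29% higher and 5.07% lower). Ace came closest, with a difference 0.85 lower on the log2 scale at 8 weeks than at 4 weeks (interaction -0.85 ± 0.25, limma adjusted p = 0.0508, unadjusted p = 0.00483). It was called in 5 of 22 alternatives, among them the fits without ICR 8-week replicate 1 (-1.09, adjusted p = 0.00522) and without ICR 4-week replicate 1 (-0.99, adjusted p = 0.0297). On probe set 1427034_at alone the interaction was -1.07 ± 0.18 (adjusted p = 0.00548 in the probe set fit), and on 1451911_a_at it was -0.88 ± 0.26 (adjusted p = 0.0560). For Agt the interaction was 0.36 ± 0.22 (limma adjusted p = 0.319), so its strain differences at the 2 ages were not shown to differ.

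Between 4 and 8 weeks, Ace and Klk1 fell in ICGN, and Klk1 fell in ICR. In ICGN 2 of the 5 genes were called lower at 8 weeks, where 22.7% of all genes were called, 11.1% higher and 11.6% lower. In ICR 1 of the 5 was called lower, where 33.0% of all genes were called, 18.7% higher and 14.4% lower. The members' median age change was -0.11 in ICGN and -0.31 in ICR, beside -0.0045 in ICGN and 0.04 in ICR over all genes. Ace on 1451911_a_at averaged 268 ± 26.2 in ICGN at 8 weeks and 613 ± 44.9 at 4 weeks (SD, n = 3 each), with no overlap (log2 -1.16 ± 0.18, or 2.23-fold lower, limma adjusted p = 6.7e-04). In ICR it averaged 558 ± 154 at 8 weeks and 680.1 ± 124 at 4 weeks, with overlap (log2 -0.31 ± 0.18, limma adjusted p = 0.21). That change was -0.06 without ICR 8-week replicate 1, -0.47 without ICR 8-week replicate 2 and -0.16 without ICR 4-week replicate 1, and was called in none of these. The other Ace probe set, 1427034_at, went the other way in ICR, with 539 ± 44.3 at 8 weeks against 372 ± 56.0 at 4 weeks (SD, n = 3 each; log2 0.52 ± 0.13, adjusted p = 0.00745 in the probe set fit). In ICGN it was lower at 8 weeks (242 ± 13.8) than at 4 weeks (352 ± 41.9), by log2 -0.54 (adjusted p = 0.00822). The direction of the age change of Ace in ICR therefore depended on the probe set.

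Klk1 on 1415837_at averaged 9605 ± 1171 in ICGN at 8 weeks, against 12273 ± 859.6 at 4 weeks (SD, n = 3 each; log2 -0.36 ± 0.12, limma adjusted p = 0.0438). This call was lost in 11 of 17 alternatives, 5 of them fits without 1 ICGN array (replicate 1, 2 or 3 at 4 weeks and 1 or 3 at 8 weeks, adjusted p from 0.0645 to 0.156). In ICR it averaged 7216 ± 1066 at 8 weeks, against 10890.5 ± 823 at 4 weeks (log2 -0.60 ± 0.12, or 1.52-fold lower, limma adjusted p = 0.00177), and that call was lost only with the mean of the gene's probe sets (adjusted p = 0.118). Probe set 1448107_x_at fell in both strains (log2 -0.42 in ICGN and -0.64 in ICR). By contrast, 1455977_x_at differed by -0.02 in ICGN (adjusted p = 0.929) and was higher at 8 weeks in ICR (log2 0.47, adjusted p = 0.0168). Agt differed with age by -0.02 in ICGN (limma adjusted p = 0.941) and by -0.38 ± 0.15 in ICR (limma adjusted p = 0.0724), and was called in neither. The Agt change in ICR was called in 4 of 17 alternatives: trimmed mean scaling (-0.49, adjusted p = 0.0284), quantile normalization (-0.48, 0.0397), the filter at the 75th percentile (-0.48, 0.0293) and the fit without ICR 8-week replicate 2 (-0.48, 0.0404). Without ICR 8-week replicate 1 it was -0.23 (adjusted p = 0.266). Agtr1a (-0.11 in each strain) and Atp6ap2 (0.04 in ICGN and 0.16 in ICR) were not called with age, but quantile normalization called Agtr1a lower at 8 weeks in ICR (-0.27, adjusted p = 0.0380), where no filter gave -0.00056 (0.998).

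The other enzymes that make or break down angiotensin peptides form a list of 16 genes, of which 15 were named on the array and 11 tested. At 8 weeks 1 was higher in ICGN and 2 were lower (median -0.13), and at 4 weeks 0 were higher and 1 was lower (median -0.08). Of all tested genes 12.8% were called higher and 19.6% lower at 8 weeks (median -0.06). At 4 weeks those shares were 2.05% and 2.08% (median -0.02). The same shares stand beside the counts of the lists that follow. Mme, which encodes neprilysin, a peptidase that turns angiotensin I into angiotensin 1-7 and degrades bradykinin, read 1595, 1441 and 1797 in ICGN at 8 weeks, against 818, 802 and 628 in ICR. The groups were far apart (log2 1.09 ± 0.14, limma adjusted p = 7.3e-05). At 4 weeks they overlapped (log2 -0.16, adjusted p = 0.592). Anpep encodes aminopeptidase N, which trims angiotensin III to angiotensin IV. It averaged 134 ± 8.2 in ICGN and 334 ± 49.8 in ICR at 8 weeks (log2 -1.23 ± 0.11, limma adjusted p = 5.7e-06), and 596 ± 20.6 in ICGN and 937 ± 56.9 in ICR at 4 weeks (log2 -0.64 ± 0.11, adjusted p = 0.00552). It was the 1 gene of these 5 lists called at 4 weeks in the main fit. Nln, encoding the peptidase neurolysin, read 362, 367 and 343 in ICGN at 8 weeks and 518, 478 and 476 in ICR (log2 -0.44 ± 0.11, adjusted p = 0.00774). Enpep, encoding the aminopeptidase that turns angiotensin II into angiotensin III, was not called (-0.11 at 8 weeks).

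Of 10 tested genes for other angiotensin and prorenin receptors and their regulators (14 listed), 3 were called higher in ICGN and 3 lower at 8 weeks (median -0.23). The counts were 3 higher and 5 lower with array medians alone, 4 and 2 with trimmed mean scaling, and 3 and 2 with quantile normalization. At 4 weeks limma called none of them, and 5 had an unadjusted p under 0.05. In 6 of 17 alternatives 1 gene of this list was called at 4 weeks. Plcb1, encoding a phospholipase C that acts below Gq-coupled receptors such as the angiotensin type 1 receptor, read 421, 543 and 442 in ICGN, against 1209.6, 1045 and 1286 in ICR (log2 -1.31 ± 0.16). Agtrap, encoding a protein that promotes internalisation of that receptor, averaged 501 ± 12.5 in ICGN and 847 ± 173 in ICR (log2 -0.72 ± 0.15). Arrb2, encoding beta-arrestin 2, averaged 153 ± 27.2 in ICGN and 65.6 ± 12.8 in ICR (log2 1.08 ± 0.15). Rgs2, encoding a protein that shortens Gq signalling, averaged 627 ± 130.3 in ICGN and 312 ± 31.6 in ICR (log2 0.96 ± 0.16). Their limma adjusted p at 8 weeks ran from 7.0e-05 for Plcb1 to 0.00259 for Agtrap.

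In the rest of the kallikrein-kinin system, 1 of 9 tested genes (13 listed) was called at 8 weeks (median 0.27). That count was 1 to 3 over 17 alternatives and 2 or 3 in 11 of them, among them the fits without ICGN 8-week replicate 2 and without ICR 8-week replicate 3 (2 each). At 4 weeks limma called 0 of them, and 0 had an unadjusted p under 0.05 (median 0.02). Serping1, encoding the C1 inhibitor that restrains plasma kallikrein, averaged 2808 ± 158 in ICGN and 1331 ± 232 in ICR (log2 1.08 ± 0.14, limma adjusted p = 1.1e-04). Kng1, encoding kininogen, the substrate of kallikreins, read 1925, 1608 and 1713 in ICGN and 1364, 1456 and 1485 in ICR at 8 weeks. Its groups did not overlap, but it did not pass the test (log2 0.28 ± 0.12, adjusted p = 0.0917). Among 3 tested genes of the Klk1-related family (13 listed, 8 named), Klk1b5 was called higher at 8 weeks, with 42.2, 44.7 and 54.8 in ICGN and 32.4, 29.8 and 13.4 in ICR (limma adjusted p = 0.0405). Of these arrays 2 of the ICGN and 3 of the ICR ones lay below the array median, and similar sequences add to the uncertainty, so no level is read from them. No gene of this family was called in 8 of 17 alternatives: array medians alone, quantile normalization, the filter at the 75th percentile, a fit of only the groups compared, and the fits without ICGN 8-week replicate 1, 2 or 3 or ICR 8-week replicate 3.

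Genes of renin cells and of the macula densa, the tubule cells that signal to them, were called higher in 4 and lower in 2 of 13 cases at 8 weeks (18 listed, median 0.19). At 4 weeks limma called none of them, and 4 had an unadjusted p under 0.05. In 2 of 17 alternatives genes of this list were called at 4 weeks, at most 2. Ptgs2, encoding cyclooxygenase 2, whose products drive renin release, read 67.0, 51.7 and 80.2 in ICGN, against 1.57, 0.513 and 0.682 in ICR. All 6 ICR arrays of both ages lay below the array median, so the gene entered the test through ICGN arrays alone. It is 1 of the 4 called higher, and no size is given for its difference. Ptger4, encoding a prostaglandin E2 receptor, averaged 321 ± 25.2 in ICGN and 172 ± 36.0 in ICR (log2 0.87 ± 0.16). Cspg4, a pericyte and mesangial marker, averaged 267 ± 29.7 in ICGN and 139 ± 78.4 in ICR (log2 0.99 ± 0.24). Slc12a2, encoding the sodium-potassium-chloride cotransporter NKCC1, averaged 928 ± 93.4 in ICGN and 1565 ± 455 in ICR (log2 -0.71 ± 0.16). The limma adjusted p of these last 3 genes ran from 0.00106 for Ptger4 to 0.00644 for Cspg4.

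**Figure D4:**
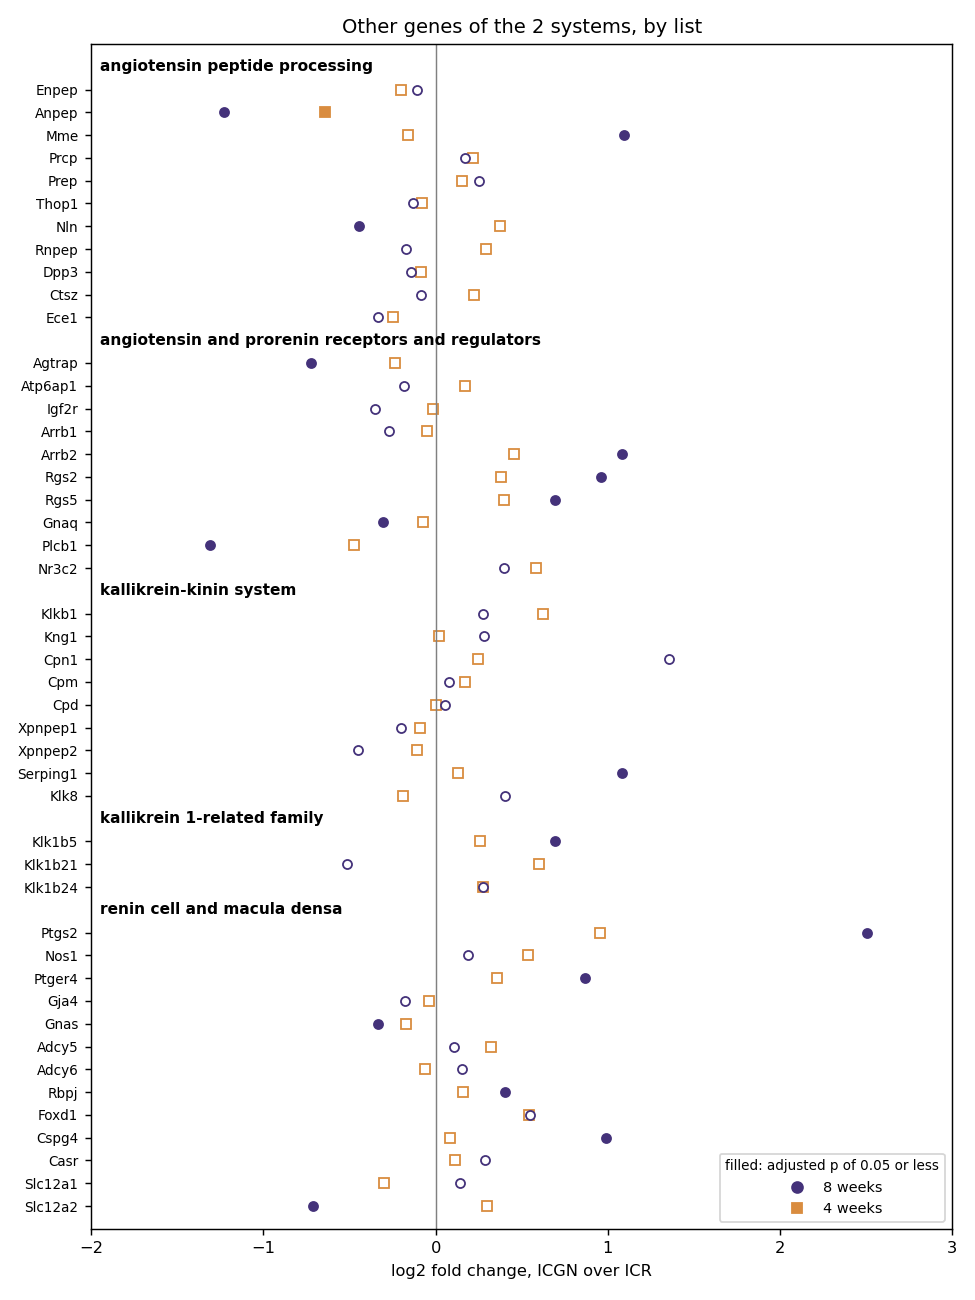
Log2 fold change of ICGN over ICR (x axis) for the tested genes of 5 lists around the members (y axis), with circles at 8 weeks and squares at 4 weeks, filled where the adjusted p was 0.05 or less. At 4 weeks the 1 filled square is Anpep. At 8 weeks Plcb1 and Anpep stand farthest to the left, and the position of Ptgs2 gives no size, since all its ICR arrays lie below the array median.

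Markers of several cell types also differed between the strains at 8 weeks, and their part in the member results was not tested. Beside the marker counts, 12.8% of all tested genes were called higher and 19.6% lower at 8 weeks, and 2.05% and 2.08% at 4 weeks. Summed signals of markers are given scaled to the common array median alone, without the centring on tested genes. Of 12 proximal tubule markers 10 were lower and 0 higher (median -0.60). Lower calls among these markers numbered 10 with array medians (median -0.72), 9 with trimmed mean scaling (-0.47) and 6 with quantile normalization (-0.36). Their summed signals were 57707 to 76094 in ICGN arrays and 105275 to 132724 in ICR arrays. Of 9 endothelial markers 6 were lower and 0 higher (3557 to 4213 in ICGN, 5428 to 6471 in ICR). Lower endothelial calls numbered 8 with array medians alone and 6 with trimmed mean scaling or quantile normalization. Ace, which both cell types express, was lower, while Agt, also made by proximal tubule, was higher. Of 9 distal and connecting tubule markers 1 was higher, Scnn1g, and 2 were lower, Slc12a3 and Pvalb, beside a higher Klk1. The list's median was -0.11, and Calb1 (-0.22), S100g (-0.01) and Slc8a1 (0.12) were not called. Summed signals of the list were 7692 to 12163 in ICGN and 12870 to 14736 in ICR. Mesangial and smooth muscle markers were higher in 4 and lower in 1 of 9 tested cases (5636 to 5804 in ICGN and 4321 to 5053 in ICR, summed over all 10 measured markers). Macrophage markers were higher in 9 of 10 cases, with none lower (8503 to 10440.1 in ICGN, 3931 to 5409.9 in ICR), 1 of them, Ms4a7, having entered the test through ICGN arrays alone, and male-biased kidney genes were lower in 7 of 8, with none higher (26161 to 40208 in ICGN, 65151 to 89348 in ICR). Lower calls among male-biased genes numbered 8 with array medians alone, 7 with trimmed mean scaling and 6 with quantile normalization. The lists share genes, so their counts are not separate. Slc7a13, Acsm3 and Kap, all called lower, stand in both the proximal tubule and the male-biased list. Cspg4 and Rgs5, both called higher, stand in the mesangial list and in the lists described above. At 4 weeks limma called none of the proximal tubule and endothelial markers (5 and 2 had an unadjusted p under 0.05). Of the macrophage markers 7 were higher at that age. Of 9 distal and connecting tubule markers 2 were already lower at 4 weeks, Slc12a3 (log2 -1.12, adjusted p = 0.00168) and Pvalb (-1.97, 6.9e-05), and of 8 male-biased genes 1 was higher, Cyp2d9 (1.86, 0.00236). Of 7 mast cell markers 4, and of 6 adrenal markers 4, were at or below the array median in every array. The 1 mast cell marker tested, Kit, was higher in ICGN at 8 weeks (0.85, adjusted p = 4.2e-04) and at 4 weeks (0.68, 0.0120). The other mast cell markers did not pass the filter, so no difference in mast cells is read from Kit. Of 2 adrenal markers tested, Dbh was called lower at 8 weeks (adjusted p = 0.0373), with 3 of its ICGN arrays and 1 of its ICR arrays below the array median. The ratio of 3′ to 5′ signal of Actb, a sign of RNA quality, was 1.57 to 1.64 in ICGN and 1.70 to 2.10 in ICR at 8 weeks. At 4 weeks it was 1.34 to 1.49 in ICGN and 1.36 to 1.45 in ICR. The same ratio of Gapdh overlapped between the strains at 8 weeks, with 0.792 to 0.797 in ICGN and 0.783 to 0.811 in ICR. At 4 weeks it was 0.811 to 0.817 in ICGN and 0.793 to 0.820 in ICR.

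For each called member, the 3 tested genes with the highest Pearson correlation of log2 values over the 12 arrays were listed. The arrays fall into 4 groups, so such a value reflects the group pattern. Agt was followed most closely by Atic, a gene of purine synthesis (r = 0.97), C730049O14Rik (r = 0.96) and Tpm1, encoding a tropomyosin (r = 0.90). The nearest to Ace were Psmb7, encoding a proteasome subunit, Ost4, encoding a subunit of the oligosaccharyltransferase, and Trpv4, encoding a cation channel (r = 0.97 each). Nearest to Klk1 were Lpar2, encoding a lysophosphatidic acid receptor (r = 0.96), Rfc4, encoding a replication factor subunit (r = 0.94), and Dnajc9, encoding a co-chaperone (r = 0.94).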

How the data were processed

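Biotin-labelled cortex RNA was hybridised to Affymetrix arrays, per the labels' protocols. The authors deposited a linear signal intensity for each probe set. The submitters' processing notes name MAS5, with no version. The mean after trimming 2% at each end was 100.0 in 4-week and 500.0 in 8-week arrays.

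With R 4.3.3 and limma 3.58.1, arrays were scaled to a common median of 47.2. There were 45101 probe sets, including 64 controls. In the annotation 9211 had no symbol, 932 had several, and 34945 that were not controls had 1, of which 34741 matched the RefSeq table of GRCm38.p6, which changed 0 symbols. Of all probe sets 24827 lay above their own array median in at least 3 arrays. Values were log2(signal + 12.9), with the table's 25th percentile as offset. The brightest probe set stood for a gene (_x_at last), and arrays were centred on the tested genes. One fit of 4 group means (8 residual degrees of freedom, mean-variance trend) gave 5 contrasts, with Benjamini-Hochberg adjustment. Fold changes understate dim genes.

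The members and lists were chosen with earlier results of these data known, and no p-value over a list was computed. All members were named, and from each list up to 4 genes called in either strain comparison, by size of difference. Enpep and Kng1 were named after their values were seen. Arrays of one group correlated at r from 0.978 to 0.989. The fit was run on simulated log2 values as a check of the code, which cannot show how the real calls depend on scaling. The alternatives and their effects are given at the end.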

Additional observations from a re-analysis of the deposited data

Results flagged for a closer look

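For 7 genes of the surrounding lists the interaction of strain and age was called by limma's test. None of the members was called in the main fit. Ace came closest (-0.85, limma adjusted p = 0.0508) and was called in 5 of 22 alternatives. Its probe set 1427034_at was called in the probe set fit (-1.07, adjusted p = 0.00548). The 7 were 3 of 11 tested angiotensin peptide processing genes, 1 of 10 receptor and regulator genes, 1 of 9 kallikrein-kinin genes and 2 of 13 renin cell and macula densa genes. In the Klk1-related family 0 of 3 were called. Of all tested genes 9.36% were called by the interaction. The interaction was 1.55 on the log2 scale for Ptgs2 (adjusted p = 0.0290), 1.26 for Mme (0.00268) and 0.96 for Serping1 (0.0130), with the 8-week difference the higher one. All 6 ICR arrays of Ptgs2 lay below the array median, so the gene entered the test through ICGN arrays alone. Ptgs2 is 1 of the 7, and 1 of the 2 renin cell and macula densa genes, by the test. Neither the size nor the adjusted p of its interaction is given. Whether its strain difference changed with age cannot be decided from signals that low. The interaction was -1.01 for Slc12a2 (adjusted p = 0.0145), -0.84 for Plcb1 (0.0373), -0.81 for Nln (0.00814) and -0.59 for Anpep (0.0322), with the 8-week difference the lower one. Slc12a2 and Nln leaned higher in ICGN at 4 weeks without being called (0.30 and 0.37) and were called lower at 8 weeks (-0.71 and -0.44). For Plcb1 the interaction was not called with trimmed mean scaling (adjusted p = 0.0520) or quantile normalization (0.0648).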

How the results depend on the processing

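The Agt and Ace strain differences at 8 weeks kept their direction and call under all 17 alternatives run. Scaling and the filter moved the balance of calls. Counts in several of the gene and marker lists at 8 weeks also moved with scaling. At 8 weeks 39.6% of called genes were higher in ICGN, against 24.6% with array medians alone, 59.9% with trimmed mean scaling, 50.4% with quantile normalization and 25.3% with no filter, and the median of all genes moved by -0.12 with array medians and 0.11 with trimmed means. In the same order the shares were 28.0%, 58.4%, 54.0% and 28.2% for the interaction (main 45.8%), 33.2%, 39.4%, 40.1% and 53.2% for age in ICGN (48.9%), and 62.7%, 37.8%, 45.2% and 72.3% for age in ICR (56.5%). At 4 weeks trimmed means gave 62.5% and quantiles 60.2% (49.7%). With each probe set as a feature, an alternative added after seeing the data, calls numbered 6112 at 8 weeks, 5108 for age in ICGN and 6824 for age in ICR, since more features were tested. Leaving out 1 array gave 227 to 396 calls at 4 weeks (511 with all arrays), 600 to 1341 for the interaction (1159), 3095 to 3884 for 8 weeks, 1875 to 2387 for age in ICGN and 3219 to 3853 for age in ICR. The low values at 4 weeks came without ICGN replicates 1 (240 calls) or 2 (227) or ICR replicates 2 (323) or 3 (315), and those of the interaction without ICGN 4-week replicates 2 (685) or 3 (709), ICR 4-week replicate 2 (735) or ICGN 8-week replicates 1 (723) or 3 (600).

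Members called by the interaction numbered 1 in place of 0 with array medians alone, with no filter and with the mean of a gene's probe sets, and 0 to 1 when 1 array was left out. For age in ICGN they numbered 1 in place of 2 with array medians alone, quantile normalization, no filter, the mean of probe sets, no mean-variance trend and the replicate block, and 1 to 2 when 1 array was left out. For age in ICR they numbered 2 with trimmed means, 3 with quantile normalization, 2 with the filter at the 75th percentile and 0 with the mean of probe sets, in place of 1, and 1 to 2 when 1 array was left out. The cause of these moves was not tested.

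Small differences changed sign. Atp6ap2 at 8 weeks was 0.12 with trimmed means, 0.25 with quantiles (called), 0.093 with the 75th percentile filter and -0.099 to 0.093 when 1 array was left out. Its interaction was 0.050 with quantiles. Its age change in ICGN was -0.032 with array medians, -0.022 with the mean of probe sets and -0.046 to 0.15 when 1 array was left out, and in ICR it was -0.013 with quantiles. The Agtr1a interaction was 0.0024 with no offset, 0.074 with trimmed means, 0.11 with quantiles, 0.071 with the 75th percentile filter, and -0.056 to 0.089 when 1 array was left out. Agt with age in ICGN ran from -0.15 to 0.13 and Ace at 4 weeks from -0.23 to 0.0061 when 1 array was left out. The age change of Ace in ICR was 0.13 with the mean of probe sets.

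The labels do not say whether replicate numbers pair the samples, and the main fit did not use them. Deviations of same-numbered arrays correlated between -0.093 and 0.097. Differently numbered arrays were not compared, so these values cannot show whether samples were paired. With the replicate block 481 genes were called at 4 weeks, 3923 at 8 weeks, 1047 for the interaction, 2651 for age in ICGN and 4006 for age in ICR. With 3 arrays a group, a signal below the array median, as for Bdkrb2, allows no statement on level.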
